A study of Mus musculus with 14 samples.

Results

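The miR-30 family was followed in mouse dorsal root ganglia (DRG), the ganglia beside the spinal cord in which sensory neurons have their cell bodies. Its members are all arms and copies of miR-30a, miR-30b, miR-30c, miR-30d and miR-30e that the deposited files list: 11 of 1123 mature miRNAs, of which 5 are 5p arms and 6 are 3p arms. All 11 passed the filter on low values that 638 miRNAs passed. Small RNA libraries came from injured and naive animals of 2 strains, the wild-derived CAST/Ei and the laboratory strain C57BL/6, with 3 CAST/Ei injured, 3 CAST/Ei naive, 3 C57BL/6 injured and 5 C57BL/6 naive libraries. Injured animals were males aged 8 to 10 weeks whose left sciatic nerve had been crushed for 30 s. Naive animals had no treatment, and the sources used here give no age for them, nor the time from crush to dissection. No transgene is stated for any group, and the ganglia of every group were dissociated before RNA extraction. Per the design text, replicates within a group are biological.

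A microRNA hairpin is cut into a duplex of a 5p and a 3p arm, and usually 1 of them is kept in the Argonaute complex, where bases 2 to 8, the seed, choose the target mRNAs. The miR-30 family is defined by the seed of its 5p arms and is widely expressed, among other places in heart, kidney and brain. In rat models of nerve injury, miR-30b has been reported to act on mRNAs of voltage-gated sodium channels in sensory neurons.

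RefSeq mature sequences (GRCm38.p6) were matched to 7 of the 11 members; miR-30b-5p, miR-30b-3p, miR-30d-5p and miR-30d-3p are named only. The sequences are shown, 5′ to 3′ with the seed in capitals, because they decide which members can share targets and which could share reads. The first set has the seed of the family's 5p arms and includes miR-384-5p, which is not a family member.
miR-30a-5p: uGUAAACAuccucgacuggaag
miR-30e-5p: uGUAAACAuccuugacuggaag
miR-30c-5p: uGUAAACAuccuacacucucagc
miR-384-5p: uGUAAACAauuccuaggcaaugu

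The 4 matched 3p arms fall under 2 other seeds, which are shown because an arm switch would change the seed.
miR-30a-3p: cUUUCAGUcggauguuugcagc
miR-30e-3p: cUUUCAGUcggauguuuacagc
miR-30c-1-3p: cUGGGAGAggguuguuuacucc
miR-30c-2-3p: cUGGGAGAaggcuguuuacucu

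Counting positions from 1 at the 5′ end, miR-30a-5p and miR-30e-5p differ by 1 base, C13U, and miR-30a-3p and miR-30e-3p differ by 1 base, G18A. The 5p arms of miR-30a and miR-30c differ at 5 of their first 22 bases, and miR-30c-1-3p and miR-30c-2-3p differ at 3. How reads that fit more than 1 member were assigned is not given in the sources used here, so the split between miR-30a and miR-30e is uncertain. The hairpins of miR-30a and miR-30e are shown with both mature arms in capitals, so that the near identity of the arms and the different loops can be seen.
Mir30a: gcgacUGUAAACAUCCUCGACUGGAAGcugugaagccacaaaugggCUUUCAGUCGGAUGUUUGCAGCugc
Mir30e: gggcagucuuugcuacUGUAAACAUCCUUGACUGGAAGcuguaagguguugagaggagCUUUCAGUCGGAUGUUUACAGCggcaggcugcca

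The 6 hairpin genes lie in 3 pairs (GRCm38, GENCODE annotation). Mir30a (chr1:23272269-23272339, plus strand) has no other gene over it, and Mir30c-2 (chr1:23291701-23291784, plus strand) overlaps an exon of the lincRNA Gm27028, 19361 bases farther on. Mir30e (chr4:120772606-120772697, minus strand) and Mir30c-1 (chr4:120769534-120769622, minus strand) are 2983 bases apart in introns of Nfyc, which encodes a subunit of the transcription factor NF-Y. Mir30b (chr15:68337415-68337510, minus strand) and Mir30d (chr15:68341208-68341289, minus strand) are 3697 bases apart, over exons of the non-coding transcripts Gm26621 and of Gm37296 and Gm20732. The mature miR-30c-5p is the same from Mir30c-1 and Mir30c-2, so its level sums both genes, whereas their 3p arms are listed apart.

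Libraries held 4007706 to 15642360 reads and detected 949 to 1084 miRNAs. Levels are given in CPM, reads scaled to a common library total, as deposited, on library sizes scaled by the trimmed mean of M-values (TMM). The 7 neuronal markers were detected in every group, with a summed level of 103355 to 166741 CPM. C57BL/6 naive libraries 4 and 5 stood apart. In libraries 4 and 5, miR-218-5p, a motor neuron miRNA, was at 260520 and 81350 CPM, against 3479 to 17984 CPM in the other 12 libraries. The liver miRNA miR-122-5p was at 661 and 369 CPM in them, against 8.63 to 39.8 CPM in the other 12. The summed level of 3 markers of myelinating glia was 6737 and 7123 CPM, against 15065 to 43006 CPM in the other 12. The comparisons that use these libraries were therefore also fitted without them, over the 627 miRNAs that then passed the filter.

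The family was an abundant one in these ganglia. Its 11 arms together took 6.02% ± 1.08 of the reads (SD, n = 14 libraries), with a range of 3.84% to 8.06%. The 5p arms made up nearly all of this, and the 3p arms were 0.595% ± 0.203 of the family's signal (SD, n = 14). Over the 14 libraries miR-30c-5p averaged 17803 CPM and ranked 16 of 1123, followed by miR-30a-5p with 16262.5 CPM and rank 18. Next came miR-30d-5p with 12932 CPM and rank 22, miR-30b-5p with 8762 CPM and rank 34, and miR-30e-5p with 4156 CPM and rank 50. The first 2 did not keep their order, since miR-30c-5p was above miR-30a-5p in 9 of 14 libraries. miR-30d-5p was above miR-30b-5p in 13 of 14, and the exception was C57BL/6 naive library 5. The order of miR-30a-5p above miR-30d-5p, and of miR-30b-5p above miR-30e-5p, held in all 14 libraries.

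The 3p arms were lower by far. miR-30a-3p averaged 201 CPM over the 14 libraries, miR-30e-3p 90.1 CPM and miR-30c-2-3p 37.7 CPM. The scarce arms were miR-30c-1-3p with 8.11 CPM, miR-30b-3p with 5.14 CPM and miR-30d-3p with 4.59 CPM. miR-30b-3p was above miR-30d-3p in 7 of 14 libraries, so their order is not set. Each of the other neighbours in this order of 3p arms kept its place in all 14 libraries. At these levels counting error is large: miR-30b-3p rests on 4 to 94 reads a library and miR-30d-3p on 6 to 89 reads.

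The 5p to 3p ratio within a library, which is free of the library's total, differed widely between hairpins. Its median over 14 libraries was 40.7 for miR-30e, 84.7 for miR-30a, 1484 for miR-30b and 2813 for miR-30d. For miR-30c, whose 5p arm comes from both genes, the ratio to the sum of both 3p arms had a median of 368. Of the miR-30c 3p arms, miR-30c-2-3p, from the chromosome 1 gene, was the higher in all 14 libraries, by 2.95 to 8.63 times. The arms of miR-30a and miR-30e differ by 1 base each. Both ratios were the lowest of the C57BL/6 naive libraries in library 4, but in library 5 they moved apart. The miR-30a ratio was 27.2 and 62.6 in these libraries, against 71.0 to 200.1 in the other 12. The miR-30e ratio was 28.3 and 109 in them, against 25.1 to 73.0 in the other 12.

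**Figure D1:**
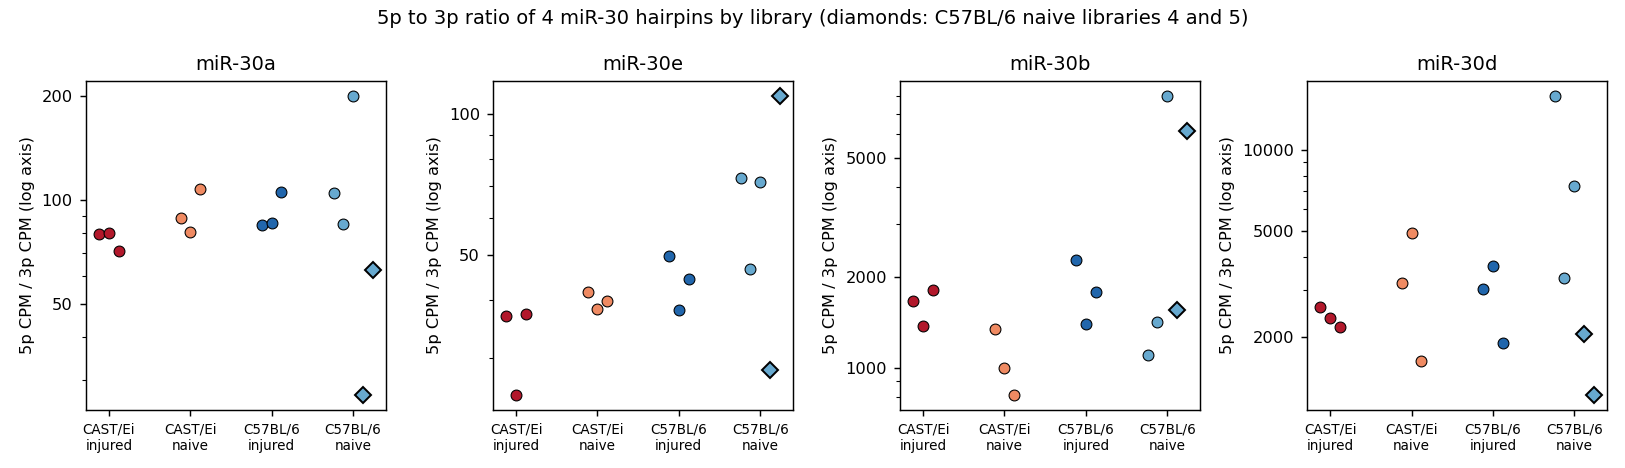
Ratio of 5p to 3p CPM (log axis) for miR-30a, miR-30e, miR-30b and miR-30d in each of the 14 libraries, by group, with diamonds for C57BL/6 naive libraries 4 and 5. The axes differ between panels, and the medians run from 40.7 for miR-30e to 2813 for miR-30d; the C57BL/6 naive libraries are the most spread.

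Nerve crush was compared first in CAST/Ei, by limma-trend on log2(CPM + 1) over all 638 miRNAs, with p-values adjusted by Benjamini and Hochberg within the contrast. No arm passed at an adjusted p of 0.05, against 1.1% of the 638 miRNAs tested. The log2 differences, injured minus naive, were all below 0 for the 11 arms, with a median of -0.38, beside -0.09 for all 638 miRNAs. Of all 638 miRNAs, 42.8% were above 0. With reads scaled to their plain total, 8 of 11 arms were below 0, with a median of -0.11 beside 0.16 for all miRNAs.

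Group ranges did not overlap for 6 of the 11 arms in CAST/Ei, all lower in the injured libraries: miR-30a-5p, miR-30b-5p, miR-30d-5p, miR-30b-3p, miR-30c-1-3p and miR-30c-2-3p. Of all 638 miRNAs, 26.6% had groups that did not overlap and 16.5% had the injured group lower. At this scaling miR-30b-3p passed the filter only through the CAST/Ei naive libraries. Its place among the 6 is therefore not independent of that filter. Under the plain total the count was 2 arms, miR-30a-5p and miR-30b-3p, beside 6.11% of all miRNAs lower.

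miR-30a-5p had 14145, 13519 and 15074 CPM in CAST/Ei injured libraries, against 19931, 18393 and 21366 CPM in CAST/Ei naive libraries. All 3 injured values lay under the lowest naive value, at a ratio of means of 0.716. The log2 difference was -0.48 ± 0.24 (SE; 95% interval -0.99 to 0.03; limma adjusted p = 0.669). With C57BL/6 naive libraries 4 and 5 left out of the fit, its SE was 0.18 and its adjusted p 0.189. It was then the 1 arm with an unadjusted p under 0.05, against 17.5% of miRNAs. The chromosome 15 arm miR-30d-5p had 12985, 12557 and 11678 CPM in CAST/Ei injured libraries, against 15731, 15268 and 16820 CPM in CAST/Ei naive libraries. These groups too were apart, with a log2 difference of -0.36 ± 0.37 (SE; limma adjusted p = 0.874).

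miR-30b-5p had 6556, 7052 and 7794 CPM in CAST/Ei injured libraries, against 9134, 8958 and 7952 CPM in CAST/Ei naive libraries. The highest injured value lay just below the lowest naive value. miR-30c-5p had 12935, 14296 and 15599 CPM in CAST/Ei injured libraries, against 20274, 21090 and 15457 CPM in CAST/Ei naive libraries, so the third naive library overlapped the injured ones. miR-30e-5p had 3063, 2527 and 3900 CPM in CAST/Ei injured libraries, against 4364, 4544 and 3349 CPM in CAST/Ei naive libraries, again with an overlap through naive library 3.

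Summed over the 5 arms, the 5p level was 51227 ± 2445 CPM in CAST/Ei injured libraries and 67543 ± 2327 CPM in CAST/Ei naive libraries (SD, n = 3 each). The ranges, 49684 to 54046 CPM and 64943 to 69433 CPM, did not overlap, and the ratio was 0.758. With reads scaled to their plain total the sums were 57048 ± 2118 CPM in injured and 62788 ± 6883 CPM in naive libraries (SD, n = 3 each), and the ranges overlapped. Of the 11 marker lists, 4 did not overlap between the same groups. The 7 neuronal markers summed to 103355 to 112086 CPM in CAST/Ei injured libraries, against 131192 to 146863 CPM in CAST/Ei naive libraries, and none of the 7 was at 0. The 3 markers of myelinating glia, none at 0, summed to 28781 to 30287 CPM in the injured and 34808 to 39832 CPM in the naive libraries. The 3 erythrocyte markers in the files summed to 7212 to 8867 CPM in CAST/Ei injured and 9088 to 12815 CPM in CAST/Ei naive libraries. The 3 markers of skeletal muscle summed to 6254 to 7253 CPM in CAST/Ei injured and 8558 to 11223 CPM in CAST/Ei naive libraries. Their part in the miR-30 values was not tested, and fewer cells of a type cannot be told apart from less RNA per cell in whole ganglia.

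**Figure D2:**
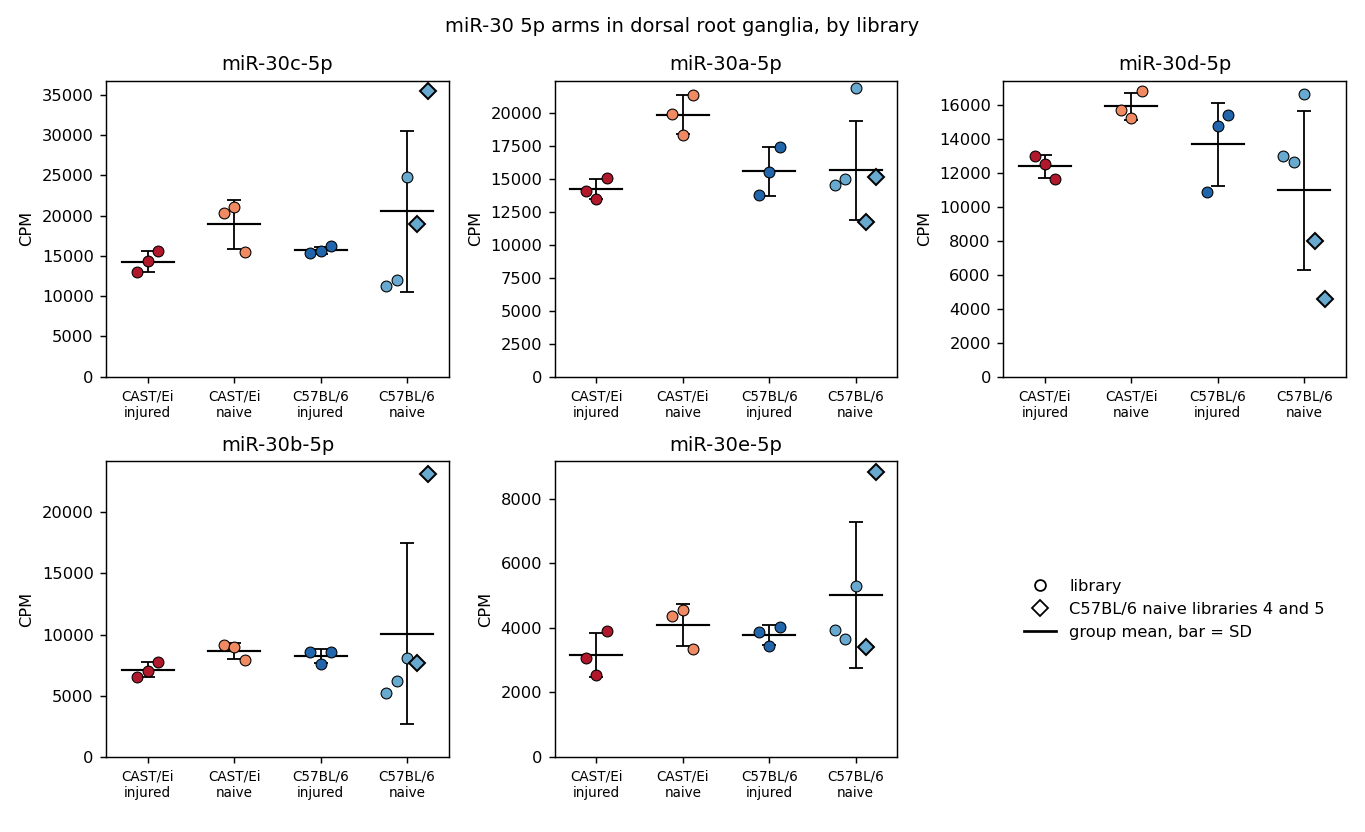
CPM of the 5 miR-30 5p arms in each library (points), with the group mean and SD (line and bar), for injured and naive ganglia of CAST/Ei and of C57BL/6; each vertical axis starts at 0. For miR-30a-5p the 3 CAST/Ei injured libraries (13519 to 15074 CPM) lie below the 3 CAST/Ei naive libraries (18393 to 21366 CPM), and C57BL/6 naive libraries 4 and 5 (diamonds) are the lowest for miR-30d-5p.

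In C57BL/6 the crush comparison gave no call for the family either, against 3.13% of the 638 miRNAs. Group ranges overlapped for all 11 arms, beside 14.9% of all miRNAs with groups that did not overlap. The log2 differences had a median of 0.02 over the 11 arms and 0.12 over all miRNAs, with 6 arms above 0 and 5 below. Of all miRNAs, 57.5% were above 0. Without C57BL/6 naive libraries 4 and 5 the median was 0.28 over the arms and 0.14 over all miRNAs, with 4 arms below 0. No arm was called in that fit, against 4.63% of miRNAs. miR-30d-3p then had an unadjusted p under 0.05, as did 18.5% of miRNAs (limma adjusted p = 0.256). miR-30a-5p had 13800, 15518 and 17474 CPM in C57BL/6 injured libraries, against 14596, 15018, 21951, 11753 and 15138 CPM in C57BL/6 naive libraries. The injured values sat within the naive range, at a log2 difference of 0.02 ± 0.21 (SE; 95% interval -0.44 to 0.47; limma adjusted p = 0.971).

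miR-30d-5p had 10894, 14762 and 15421 CPM in C57BL/6 injured libraries, against 13022, 12640, 16654.5, 8015 and 4602 CPM in C57BL/6 naive libraries. The log2 difference was 0.43 ± 0.33 (SE; limma adjusted p = 0.456), and the 2 lowest values were naive libraries 4 and 5. Over naive libraries 1 to 3 alone miR-30d-5p averaged 14106 ± 2216 CPM (SD, n = 3), against 13692 ± 2446 CPM in the injured libraries (SD, n = 3).

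miR-30b-5p had 8619, 7619 and 8590 CPM in C57BL/6 injured libraries, against 5276, 6190, 8122, 7667 and 23134 CPM in C57BL/6 naive libraries. Naive library 5 alone was above all 3 injured values. The log2 difference for miR-30b-5p was -0.06 with naive libraries 4 and 5 and 0.36 without them (limma adjusted p = 0.935 with and 0.291 without). miR-30c-5p had 15346, 15554 and 16167 CPM in C57BL/6 injured libraries, against 11285, 12054, 24824, 18926 and 35439 CPM in C57BL/6 naive libraries, which lay on both sides of the injured ones. For miR-30e-5p the values were 3877, 3427 and 4013 CPM in C57BL/6 injured libraries and 3919, 3667, 5304, 3398 and 8833 CPM in C57BL/6 naive libraries.

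The summed 5p level was 57026 ± 4566 CPM in C57BL/6 injured libraries (SD, n = 3) and 62286 ± 18372.5 CPM in C57BL/6 naive libraries (SD, n = 5). Over naive libraries 1 to 3 it was 58174 ± 16195 CPM (SD, n = 3), so the naive spread did not come from libraries 4 and 5 alone. The neuronal markers summed to 108277 to 112744 CPM in C57BL/6 injured libraries, against 133376 to 166741 CPM in C57BL/6 naive libraries. The markers of myelinating glia, 34077 to 43006 CPM in C57BL/6 injured and 6737 to 33997 CPM in C57BL/6 naive libraries, were apart the other way. So were the 2 endothelial markers, at 18408 to 20895 CPM in C57BL/6 injured and 11212 to 16081 CPM in C57BL/6 naive libraries. No marker of these lists was at 0, and their part in the miR-30 values was not tested.

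Averaged over both strains, the injury effect was called for no arm, against 4.23% of all miRNAs, with a median of -0.21 for the 11 arms and 0.01 for all. The median of the arms was -0.15 without C57BL/6 naive libraries 4 and 5, beside 0.02 for all. No arm was then called, against 8.77% of miRNAs, and 1, miR-30a-5p, had an unadjusted p under 0.05, as did 22.5% of miRNAs. The difference between the strains' injury effects (CAST/Ei minus C57BL/6) was called for no arm and for 0% of all miRNAs by limma. At an unadjusted p under 0.05 it held 1 arm, miR-30b-3p, and 8.15% of all miRNAs. In the fit without the libraries that stood apart it held 2 arms, miR-30b-5p and miR-30b-3p, and 9.09% of miRNAs. No arm and 0% of miRNAs were called there. As miR-30b-3p passed the filter only through the CAST/Ei naive libraries, its tests of this difference are not independent of the filter. The same difference was called for 0.157% of miRNAs by edgeR and for 1.42% by DESeq2, with no member among them. For miR-30a-5p the strain difference in the injury effect was -0.50 with a 95% interval of -1.18 to 0.18, so the strains' injury responses are neither shown to differ nor shown to be alike.

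**Figure D3:**
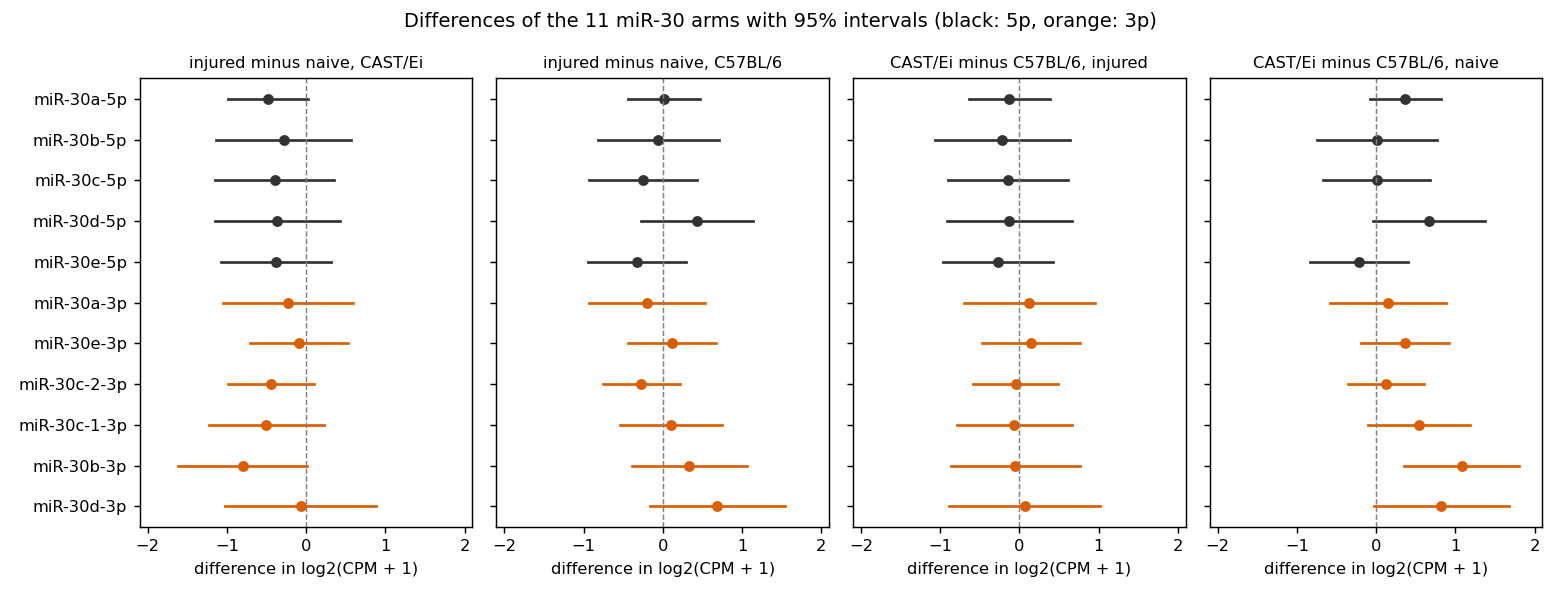
Differences in log2(CPM + 1) with 95% intervals for the 11 miR-30 arms, in 4 comparisons (injured minus naive in each strain, CAST/Ei minus C57BL/6 in each condition). All 11 points lie below 0 for injury in CAST/Ei, while 42.8% of all 638 miRNAs lie above 0. When reads are scaled to their plain total, 8 of the 11 lie below 0. The only interval shown that leaves out 0 is that of miR-30b-3p between strains in naive ganglia, 0.35 to 1.81.

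The strains were compared next. In naive ganglia no arm was called, against 11.1% of the 638 miRNAs, and 1 arm, against 31.8% of miRNAs, had an unadjusted p under 0.05. The log2 differences, CAST/Ei minus C57BL/6, had a median of 0.36 over the 11 arms and 0.12 over all miRNAs, with 10 of 11 above 0. Of all miRNAs 56.4% were above 0. With reads scaled to their plain total 8 of 11 arms were above 0, while 4 of 11 were below 0 by edgeR and 5 of 11 by DESeq2. Without C57BL/6 naive libraries 4 and 5 the median was 0.43 over the arms and 0.12 over all miRNAs. Then 6 of the 11 arms, against 30% of miRNAs, had an unadjusted p under 0.05 (all 3p arms but miR-30c-2-3p, and miR-30b-5p), and 1 arm, against 14.2% of miRNAs, was called. The glial markers summed to 34808 to 39832 CPM in CAST/Ei naive and 6737 to 33997 CPM in C57BL/6 naive libraries, and the endothelial markers to 18746 to 27549 CPM in CAST/Ei naive and 11212 to 16081 CPM in C57BL/6 naive libraries. Neither list overlapped, and their part in the miR-30 values was not tested. Groups did not overlap for 2 arms, miR-30b-3p and miR-30c-1-3p, both higher in CAST/Ei. Of all miRNAs 16.5% had groups apart, and 9.4% had CAST/Ei higher.

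miR-30b-3p, the scarce arm of the miR-30b hairpin, had 6.81, 9.01 and 9.80 CPM in CAST/Ei naive libraries, against 4.80, 4.37, 1.01, 4.94 and 3.76 CPM in C57BL/6 naive libraries. These values stand on 94, 81 and 57 reads in CAST/Ei naive libraries and on 35, 54, 4, 43 and 20 reads in C57BL/6 naive libraries. All 3 CAST/Ei libraries were above all 5 C57BL/6 libraries, and the ratio of means was 2.26. The log2 difference was 1.08 ± 0.34 (SE; 95% interval 0.35 to 1.81) and did not pass, with a limma adjusted p of 0.0544. It passed without C57BL/6 naive libraries 4 and 5 (log2 difference 1.25, limma adjusted p = 0.0398) and with the replicate number as a block (1.25, limma adjusted p = 0.0378). It did not pass by edgeR (adjusted p = 0.0951) or DESeq2 (adjusted p = 0.0744). Over the alternatives run, its adjusted p ran from 0.0321 to 0.187. The arm reached the 5 CPM of the filter in all 3 CAST/Ei naive libraries and in no C57BL/6 naive library. At the deposited scaling it would not have passed the filter without the CAST/Ei naive libraries. Its tests in every comparison that uses those libraries are therefore not independent of that filter. This includes injury in CAST/Ei, the strains' difference in injury effect, and the arm ratio of miR-30b.

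After crush the same arm had 3.93, 5.14 and 4.31 CPM in CAST/Ei injured libraries, against 3.78, 5.44 and 4.83 CPM in C57BL/6 injured libraries. Here the strains overlapped, at a log2 difference of -0.05 (95% interval -0.87 to 0.76; limma adjusted p = 0.985). The difference between the strains' injury effects for miR-30b-3p was -1.14, with a 95% interval of -2.23 to -0.04 and a limma adjusted p of 0.529. Its hairpin partner miR-30b-5p had means of 8681 ± 638 CPM in CAST/Ei naive libraries (SD, n = 3) and 10078 ± 7387 CPM in C57BL/6 naive libraries (SD, n = 5).

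miR-30c-1-3p had 10.5, 11.2 and 10.1 CPM in CAST/Ei naive libraries, against 5.07, 9.40, 4.05, 8.15 and 9.97 CPM in C57BL/6 naive libraries. The groups were apart, narrowly, with a log2 difference of 0.54 ± 0.30 (SE; limma adjusted p = 0.238). miR-30c-2-3p, with the same seed and from the other gene, had 40.8, 38.9 and 52.1 CPM in CAST/Ei naive libraries, against 38.6, 40.0, 34.96, 43.2 and 43.3 CPM in C57BL/6 naive libraries, and the groups overlapped.

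The arms miR-30a-3p and miR-30e-3p, which share a seed, depended in this comparison on which libraries were kept. miR-30a-3p had 225, 228 and 198 CPM in CAST/Ei naive libraries, against 139, 177, 110, 432 and 242 CPM in C57BL/6 naive libraries. C57BL/6 naive libraries 4 and 5 held the 2 highest values, so that the groups overlapped with all libraries and did not without these 2. The log2 difference was 0.15 ± 0.34 with them and 0.63 ± 0.20 without them (SE; limma adjusted p = 0.7999 with and 0.0552 without). Without them 4 arms were apart, all 3p arms higher in CAST/Ei (miR-30a-3p, miR-30e-3p, miR-30b-3p and miR-30c-1-3p). Of all miRNAs, 14.7% were then apart with CAST/Ei higher and 9.87% with CAST/Ei lower. With reads scaled to their plain total 1 arm was apart, miR-30b-3p, with and without these libraries. Of all miRNAs, 7.37% were apart with CAST/Ei higher under that scaling with these libraries, and 11.1% without them.

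**Figure D4:**
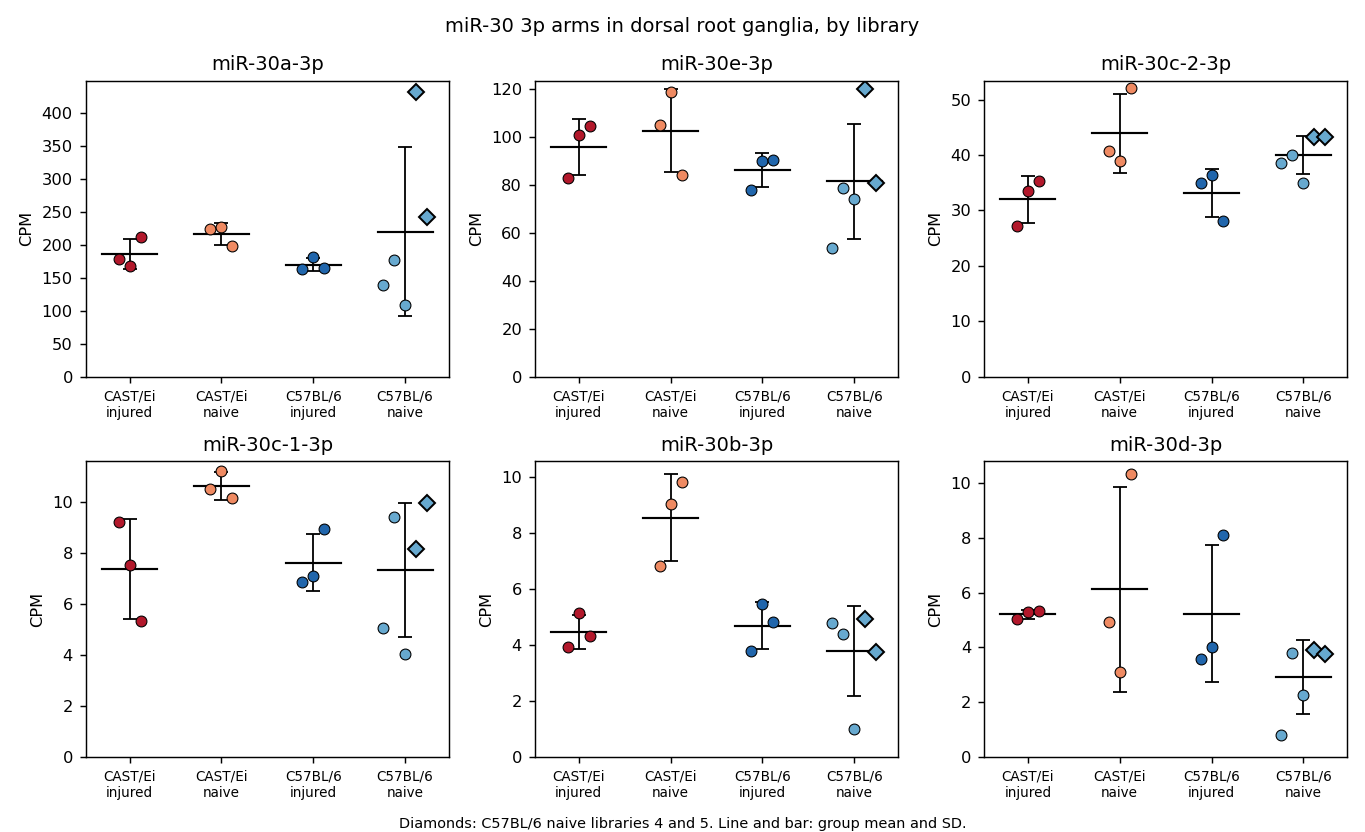
CPM of the 6 miR-30 3p arms in each library (points), with the group mean and SD (line and bar), for injured and naive ganglia of CAST/Ei and of C57BL/6; each vertical axis starts at 0. For miR-30b-3p the 3 CAST/Ei naive libraries (6.81 to 9.80 CPM) lie above all other libraries, and for miR-30a-3p C57BL/6 naive library 4 (432 CPM, a diamond) is the highest.

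Among injured ganglia no arm was called between strains, against 3.29% of miRNAs, and group ranges overlapped for all 11 arms, beside 35.9% of all miRNAs with groups apart. The log2 differences had a median of -0.06 for the arms and -0.06 for all miRNAs. Their estimates ran from -0.27 for miR-30e-5p to 0.15 for miR-30e-3p. The narrowest 95% interval was that of miR-30a-5p, -0.63 to 0.38. Averaged over conditions, the strain effect was called for no arm, against 7.99% of miRNAs. It was again called for none without C57BL/6 naive libraries 4 and 5, against 15.5% of miRNAs. In that fit 3 arms (miR-30a-3p, miR-30b-3p and miR-30e-3p), against 30% of miRNAs, had an unadjusted p under 0.05.

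The arm ratios were tested in a separate limma fit over the 199 hairpins with both arms above the filter, of which 4 are miR-30a, miR-30b, miR-30d and miR-30e. None of the 4 was called in any of the 7 contrasts. Of all hairpins, the share called was 0% for injury in either strain and for the interaction, 0.503% for injury averaged over strains, and 1.01%, 0.503% and 2.01% for strain in naive ganglia, in injured ganglia and on average. miR-30b had the single unadjusted p under 0.05, in naive ganglia, where 17.1% of hairpins had one, with a log2 ratio difference (CAST/Ei minus C57BL/6) of -1.07 ± 0.51 (SE; limma adjusted p = 0.290). Without C57BL/6 naive libraries 4 and 5 the unadjusted p of miR-30b was 0.108 in that limma fit. None of the 4 was called in any contrast, beside 0% to 3.06% of hairpins. The ratio of miR-30e then had an unadjusted p under 0.05 for strain in naive ganglia (log2 ratio difference -0.64; 17.3% of hairpins), for strain on average (-0.53; 14.8%) and for injury on average (-0.40; 12.2%). That of miR-30d did for injury in C57BL/6 (-1.002; 9.18%). Their limma adjusted p ran from 0.184 for miR-30e to 0.458 for miR-30d. The 5p to 3p ratio of miR-30b was 1342, 994 and 811 in CAST/Ei naive libraries, against 1100, 1415, 8014.5, 1552 and 6149 in C57BL/6 naive libraries. The ratio of miR-30a was 70.98 to 80.2 in CAST/Ei injured libraries, against 80.8 to 108 in CAST/Ei naive libraries, and that of miR-30e was 25.1 to 37.3 in CAST/Ei injured libraries, against 38.3 to 41.6 in CAST/Ei naive libraries. These 2 of 4 hairpins were apart, beside 14.6% of all hairpins, and neither passed the test. Between strains in injured ganglia the same 2 of 4 were apart, beside 16.1% of hairpins. In C57BL/6 injured libraries the ratio was 84.6 to 106 for miR-30a and 38.1 to 49.8 for miR-30e, above the CAST/Ei injured values just given, and neither passed.

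The make-up of the 5p pool, the share of each arm in the summed 5p level, lay in narrower ranges in 12 of the 14 libraries than in all 14. In those 12, miR-30c-5p made up 23.5% to 32.3%, miR-30a-5p 26.3% to 32.9%, miR-30d-5p 20.7% to 27.1%, miR-30b-5p 10.6% to 16.4% and miR-30e-5p 5.06% to 8.15%. C57BL/6 naive libraries 4 and 5 lay outside these ranges for miR-30d-5p, with 16.1% and 5.28%, for miR-30c-5p, with 38.0% and 40.7%, and for miR-30a-5p, with 23.6% and 17.4%. miR-30b-5p and miR-30e-5p were outside in library 5 only, with 26.5% and 10.1%. In library 5 the neighbours on chromosome 15 lay outside on opposite sides, while in library 4 miR-30b-5p was inside its range. The ratio of miR-30d-5p to miR-30b-5p was 1.05 in library 4 and 0.199 in library 5, against 1.26 to 2.47 in the other 12. miR-30a-5p over miR-30d-5p was 1.47 and 3.29 in these libraries, against 1.05 to 1.32 in the other 12. By contrast, miR-30c-5p over miR-30e-5p was 5.57 and 4.01 in them, inside the wide range of the other 12, 2.88 to 5.66. Libraries 4 and 5 are those in which miR-218-5p, miR-122-5p and the glial, neuronal, endothelial, erythrocyte and epithelial markers stood apart. The fibroblast markers, at 2875.46 and 4776 CPM, were above the other 12 (2175 to 2874.92 CPM), in library 4 only just. Those of skeletal muscle were lower in library 4 (5220 CPM) and higher in library 5 (15645 CPM) than in the other 12 (6254 to 13734 CPM). The part of any cell type in the miR-30 shares was not tested.

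**Figure D5:**
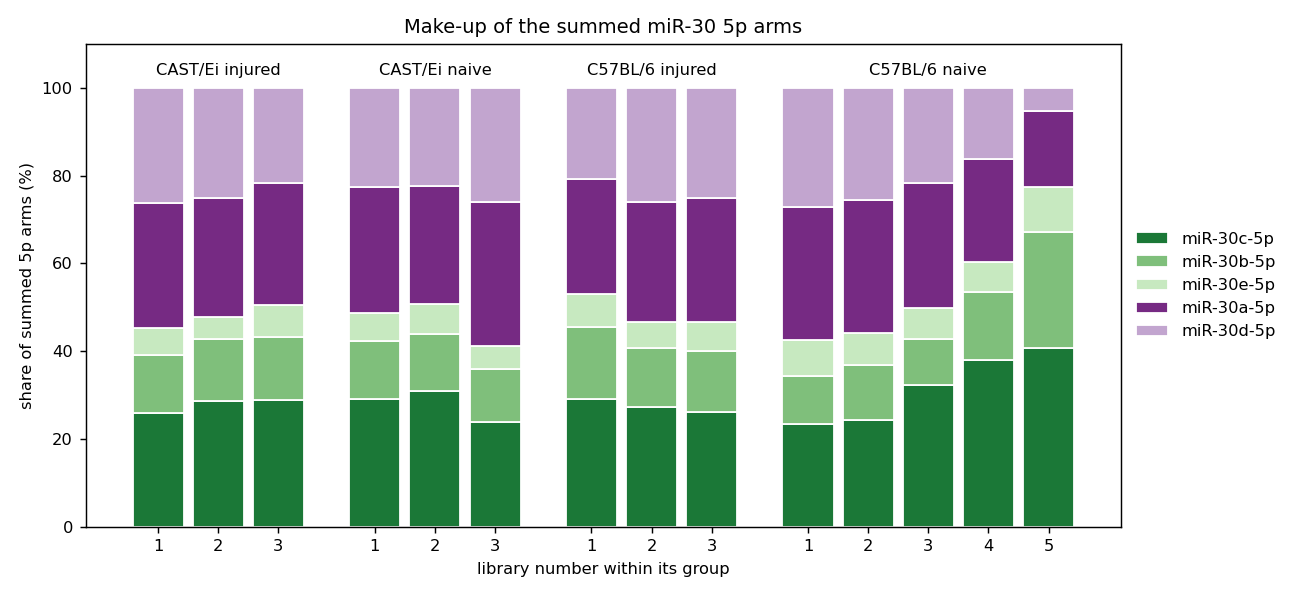
Share (%) of each miR-30 5p arm in the summed 5p level of each library, with the libraries numbered within their group. In 12 libraries miR-30d-5p takes 20.7% to 27.1%, while in C57BL/6 naive libraries 4 and 5 it takes 16.1% and 5.28%.

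The steadiness of single arms was described by the SD of log2(CPM + 1) over the 14 libraries. It was 0.24 for miR-30c-2-3p, below all but 0.784% of the 638 miRNAs, and 0.27 for miR-30a-5p, below all but 2.35%. Without C57BL/6 naive libraries 4 and 5 these shares were 6.90% and 9.09%. Over the 14 libraries the median miRNA had 0.55. The scarce arms miR-30b-3p and miR-30d-3p were above it, with 0.57 and 0.62. miR-30d-5p had 0.50 with all 14 libraries and 0.21 without C57BL/6 naive libraries 4 and 5, where the median miRNA had 0.43. Likeness between members was measured as the root mean square difference of centred log2 profiles over 14 libraries, where 0 means the same profile and libraries share depth and scaling. The closest were miR-30b-5p and miR-30c-5p with 0.22, miR-30c-5p and miR-30e-5p with 0.25, and miR-30b-5p and miR-30e-5p with 0.27. Without C57BL/6 naive libraries 4 and 5 miR-30a-5p and miR-30d-5p were the closest, with 0.11, against 0.39 with them. The genomic pair miR-30b-5p and miR-30d-5p was the most distant of all pairs over 14 libraries, with 0.87, and had 0.24 without the 2 libraries.

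Outside the family, miR-384-5p was the one other miRNA with the seed of the 5p arms, among 918 of 1123 listed miRNAs with a matched sequence. It is encoded on the X chromosome and is known as a brain miRNA. miR-384-5p averaged 1109 CPM over 14 libraries and added 1.35% to 2.12% to the summed level of this seed. Its profile was the closest to the summed 5p arms of all 627 other miRNAs kept, with a root mean square difference of 0.19, beside 0.57 for the median miRNA. Without C57BL/6 naive libraries 4 and 5 it ranked 10. The next over 14 libraries were miR-3074-1-3p with 0.22, miR-137-3p with 0.24, miR-411-3p with 0.24 and miR-3068-3p with 0.27. Without libraries 4 and 5 they ranked 30, 16, 21 and 71. miR-384-5p had 1040, 1073 and 1170 CPM in CAST/Ei injured libraries, against 1352, 1256 and 1163 CPM in CAST/Ei naive libraries. The groups overlapped by 1 library, at a log2 difference of -0.20 ± 0.30 (SE; limma adjusted p = 0.922). In C57BL/6 it had 1033, 1024 and 1191 CPM in injured libraries, against 678, 681, 1281.5, 995 and 1584.5 CPM in naive libraries, and it was called in none of the 7 contrasts.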

How the data were processed

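Small RNA of whole, dissociated dorsal root ganglia was sequenced in 14 libraries, prepared with the Ion Total RNA-Seq kit per the labels' protocols. Bowtie2 was used, per the submitters' processing notes; its version, the genome build and the miRNA release were not given in the sources used here. The deposited files hold 1 signal value per mature miRNA, named CPM. All values (100%) were whole multiples of 1 read within a tolerance of 1e-06, and TMM-scaled CPM of the recovered reads equalled them within a relative gap of 1.04e-05. The plan had assumed plain CPM.

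The members, lists and tests were chosen with earlier results of these data known. Values were tested as log2(CPM + 1) for the 638 miRNAs that reached 5 CPM in 3 or more libraries, by limma-trend (R 4.3.3, limma 3.58.1) with 1 mean for each of 4 groups, in 7 two-sided contrasts, adjusted within each contrast. The code was tested on simulated data. Count tests (edgeR 4.0.16, DESeq2 1.42.0) used the recovered reads. Libraries were 4007706 to 15642360 reads deep, so a floor of 3 reads is 0.202 to 0.760 CPM, which covers counting error only. All arms of the family are named, as are seed mates and the 5 miRNAs closest to the summed 5p arms. Folds on the log2(CPM + 1) scale understate changes of scarce arms. No batch is recorded. Deviations of same-numbered CAST/Ei and C57BL/6 naive libraries correlated weakly (0.104 to 0.114 in 3 pairs). Those of CAST/Ei naive and C57BL/6 injured libraries, which differ in strain and treatment, correlated at 0.108 to 0.555. Correlations between differently numbered libraries were not computed, so these values cannot show pairing. The blocked value is given where it changed a call. Miscounted reads between near-identical arms, and strand, could not be checked; miR-30f, opposite Mir30e, is outside the family rule.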

Additional observations from a re-analysis of the deposited data

Results flagged for a closer look

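Of 35 quantities tested for a sample far from its group, 2 were set apart, where chance alone gives about 1 in 20. miR-30b-5p was at 23134 CPM in C57BL/6 naive library 5, while the nearest naive library had 8122 CPM and the lowest 5276 CPM. The ratio of miR-30a-5p to miR-30d-5p was 3.29 in the same library, while the nearest naive library had 1.47 and the lowest 1.12.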

How the results depend on the processing

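The count of miR-30 arms called was 0 in 6 of the 7 contrasts under every alternative run (edgeR, DESeq2, other scalings, pseudocounts of 0.25 and 5 CPM, no filter and a filter of 50 CPM that leaves out the 4 scarcest arms, compared groups only, robust fit, replicate block, libraries left out), and no arm ratio was called under those run for it. The exception was CAST/Ei against C57BL/6 in naive ganglia, where 1 arm, miR-30b-3p, was called with a pseudocount of 5 CPM, without C57BL/6 naive libraries 4 and 5, and with the replicate block, and 0 to 1 arms when single libraries were left out. It was called without C57BL/6 naive library 1, 2, 3 or 4 (limma adjusted p = 0.0487, 0.0490, 0.0372 and 0.0464). The log2 difference was 0.79 without library 3, which holds 4 of its reads, against 1.08 with all. In the main fit this arm passed the filter only through the CAST/Ei naive libraries, the group where it was high.

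Whether the replicate numbers pair the samples is not settled by the data. Deviations of same-numbered libraries correlated above 0.1 in 10 of 18 pairs (-0.194 to 0.555). Among them were all 3 pairs of CAST/Ei naive with C57BL/6 naive (0.104 to 0.114). All 3 pairs of CAST/Ei naive with C57BL/6 injured (0.108 to 0.555), which differ in strain and treatment, were among them too. No other combination of groups had all 3 pairs above 0.1. Correlations between differently numbered libraries were not computed. The labels do not say what a number marks. In the block fit C57BL/6 naive libraries 4 and 5, alone in their numbers, carry no weight in the contrast. Its log2 difference for miR-30b-3p was 1.25, with 1 arm called.

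Scaling moved the median of all miRNAs for injury in CAST/Ei to 0.16 with plain totals and 0.13 with the 3 most abundant left out of the total, against -0.09 as deposited; 8 of 11 arms were below 0 under both, and 10 of 11 with quantile normalization. Alternatives of scaling for sums and group ranges, and edgeR without C57BL/6 injured library 1, were added after seeing the data. The 95% intervals of single arms were 1.01 to 1.90 wide on the log2 scale where both groups had 3 libraries, and 0.906 to 1.70 wide against the 5 C57BL/6 naive libraries.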
